A study of Mus musculus with 16 samples.

Results

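The 4 pairs described here set an iHAC2-iPS clone, a mouse induced pluripotent stem (iPS) cell line that carries the human artificial chromosome iHAC2, against a line that was subcloned from it after the chromosome had been lost. The pairs were 2-B1 and F-B1, 2-C6 and F-C5, 2-E and F-E4, and 2-N and F-N7, chosen by their line of origin, and they make up 8 of the 16 samples of the series. The study asked whether a chromosome that replicates beside the host genome can reprogram fibroblasts and then be removed. All 8 lines had a C57BL/6 background and came from mouse embryonic fibroblasts (MEFs). iHAC2 holds 2 copies each of Klf4, c-Myc, Sox2 and Oct4 driven by the CAG promoter, 2 further copies of CAG-driven Oct4, an H1-driven short hairpin RNA against p53, and an EGFP gene. The iHAC-free iPS lines came from cells that had lost iHAC2 by themselves, which were sorted as EGFP-negative and recloned on feeder cells, so that loss of iHAC2 and the added subcloning and culture cannot be told apart. Each line was measured once, on a 1-colour Agilent array. Each line is 1 clone, and the lines were maintained on layers of MEF feeder cells. Before selection, the fibroblasts had also been given miR-294 and miR-295 mimics, microRNA copies that aid reprogramming, so that all 8 lines share this treatment.

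Reprogramming with these factors replaces the transcription program of a fibroblast with that of the early embryo. While factor genes stay active, the cell holds factor transcripts from the vector beside those of its own genes, and an array probe sees both only where its letters lie in the part that the vector carries. Self-renewal of mouse pluripotent cells rests on a network of transcription factors, among them Nanog, Esrrb, Klf2, Klf4, Sox2 and Oct4, and p53 restrains the growth of cells under reprogramming.

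Values are log2 levels, in which 0 is the 75th percentile of the array, and every difference is the iHAC-free line minus its own clone. A probe was called when the limma fit gave an adjusted p under 0.05, the mean difference was at least 2-fold, and the 4 pairs moved the same way. Both arrays of each pair lay on 1 slide, the C and E pairs on slide 3 and the B and N pairs on slide 4. In each pair the iHAC2-iPS array had fewer spots well above background, with 54.2% in 2-B1, 57.4% in 2-C6, 59.9% in 2-E and 56.7% in 2-N against 61.9% in F-B1, 59.4% in F-C5, 63.0% in F-E4 and 60.1% in F-N7. The mean gap was 4.06 ± 2.54 percentage points (SD, n = 4 pairs), with p = 0.125 in a two-sided exact sign-flip permutation test, the smallest p that 4 pairs allow. The lowest level well above background was -5.03 to -4.29 on the iHAC2-iPS arrays and -5.53 to -4.99 on the iHAC-free arrays. The part of this gap in changes of dim probes was not tested. Fibroblast genes were well above background in every line, as given further on, and the source of that RNA was not tested. The pluripotency genes Pou5f1, Nanog and Dppa5a were well above background on the 8 arrays, while Khdc3 and Gbx2 were so on 2 of 4 clones and 4 of 4 iHAC-free lines. In the clones the Pou5f1 probe does not separate transcripts of the vector from those of the host gene.

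The sequences of the probes come first, because the results for the vector's own genes turn on where a probe sits. The first pair below are probes for Myc, on mm9 at chr15:61820925-61820984 and chr15:61821417-61821476, plus strand, at bases 1407 and 1899 of the transcript. Capitals mark the stop codon, found in the reading frame that is open through both probes. The third is the probe for Pou5f1, which encodes Oct4, at chr17:35647280-35647340, plus strand. Its capitals mark the 21 bases that the study used as a forward primer inside the Oct4 coding sequence.

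Myc, coding probe: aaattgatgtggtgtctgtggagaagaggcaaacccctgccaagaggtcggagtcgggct
Myc, stop codon probe: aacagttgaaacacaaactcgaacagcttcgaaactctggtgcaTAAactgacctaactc
Pou5f1 probe: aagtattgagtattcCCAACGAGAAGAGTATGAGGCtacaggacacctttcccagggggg

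The overlapping probes for the embryonic globin gene Hbb-bh1 lie at chr7:110990307-110990366 and chr7:110990327-110990386, minus strand. They are printed because they share 40 of 60 bases and only the first gave a signal. Capitals mark the 20 bases of each that the other lacks.

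Hbb-bh1, first probe: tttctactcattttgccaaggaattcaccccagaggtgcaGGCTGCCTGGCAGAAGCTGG
Hbb-bh1, second probe: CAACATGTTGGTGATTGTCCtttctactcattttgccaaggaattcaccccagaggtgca

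Myc, which drives growth and is one of the factors on iHAC2, fell 23.9-fold and 17.7-fold at its 2 coding probes when the chromosome was lost, and was not called at the probe beyond the coding part. At the coding probe the levels were 1.04 in 2-B1, 3.42 in 2-C6, 1.43 in 2-E and 1.87 in 2-N, and -2.42 in F-B1, -3.08 in F-C5, -2.55 in F-E4 and -2.51 in F-N7. The groups did not overlap, and clone 2-C6 was the highest. The difference was -4.58 ± 0.45 (SE, adjusted p = 0.0103). The stop codon probe fell by 4.15 ± 0.40 (SE, adjusted p = 0.0103), from 3.56 to 5.63 in the clones to -0.33 to 0.31 in the iHAC-free lines. The remaining Myc probe starts 52 bases after the stop codon, at base 1998 of the transcript. There the clones read 1.06, 0.18, -0.21 and 0.38 and the iHAC-free lines 1.31, 0.72, 1.11 and 1.35, in the order B, C, E and N. Each iHAC-free line was above its own clone, but the groups overlapped and the mean difference of 0.77 was not called (adjusted p = 0.243). B6ES and TT2, the mouse embryonic stem (ES) cell lines of the series, read 2.45 and 2.39 at this probe, -0.83 and -1.08 at the coding probe and 1.56 and 1.48 at the stop codon probe. They were scanned in another session, which cannot be told apart from cell type.

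Pou5f1 fell at its coding probe. The clones read 4.53 in 2-B1, 6.44 in 2-C6, 4.98 in 2-E and 3.92 in 2-N, and the iHAC-free lines read 2.83 in F-B1, 2.47 in F-C5, 2.60 in F-E4 and 2.56 in F-N7. The groups did not overlap, and the SD was 0.15 in the iHAC-free lines and 1.07 in the clones. The difference was -2.35 ± 0.36 (SE, adjusted p = 0.0403), 5.10-fold lower. No other Pou5f1 probe was measured here, so transcripts of the vector and of the host gene could not be separated.

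Klf4 was called higher and Sox2 was not called at the only probe of each, at bases 2160 and 1846 of their transcripts. Klf4, a zinc finger factor, read 3.21 in 2-B1, 2.34 in 2-C6, 2.18 in 2-E and 4.69 in 2-N, and 6.03 in F-B1, 5.83 in F-C5, 5.46 in F-E4 and 5.59 in F-N7. It rose by 2.62 ± 0.41 (SE, adjusted p = 0.0416) with no overlap between the groups. Sox2, the partner of Oct4 on many enhancers, read 2.08, 1.60, 0.45 and 3.66 in the clones and 3.49, 3.68, 3.50 and 3.71 in the iHAC-free lines, in the same order of pairs. The mean difference was 1.65 (adjusted p = 0.112), and in the N pair it was 0.05. Where these probes lie relative to the coding parts was not determined here. The directions of the 4 factors are therefore not comparable across these probes. Myc and Pou5f1 were called lower at coding probes. Klf4 was called higher and Sox2 was not called at probes of undetermined position. Pou5f1 and Klf4 lost their call with slides as a block (adjusted p = 0.110 and 0.0864) and without the B pair (0.0943 and 0.137) or the E pair (0.165 and 0.165), Klf4 also without the C pair (0.0807), and the Myc coding probe without the E pair (0.0547). Under normexp, and without the N pair, Sox2 was called (adjusted p = 0.0391 and 0.0282).

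**Figure D1:**
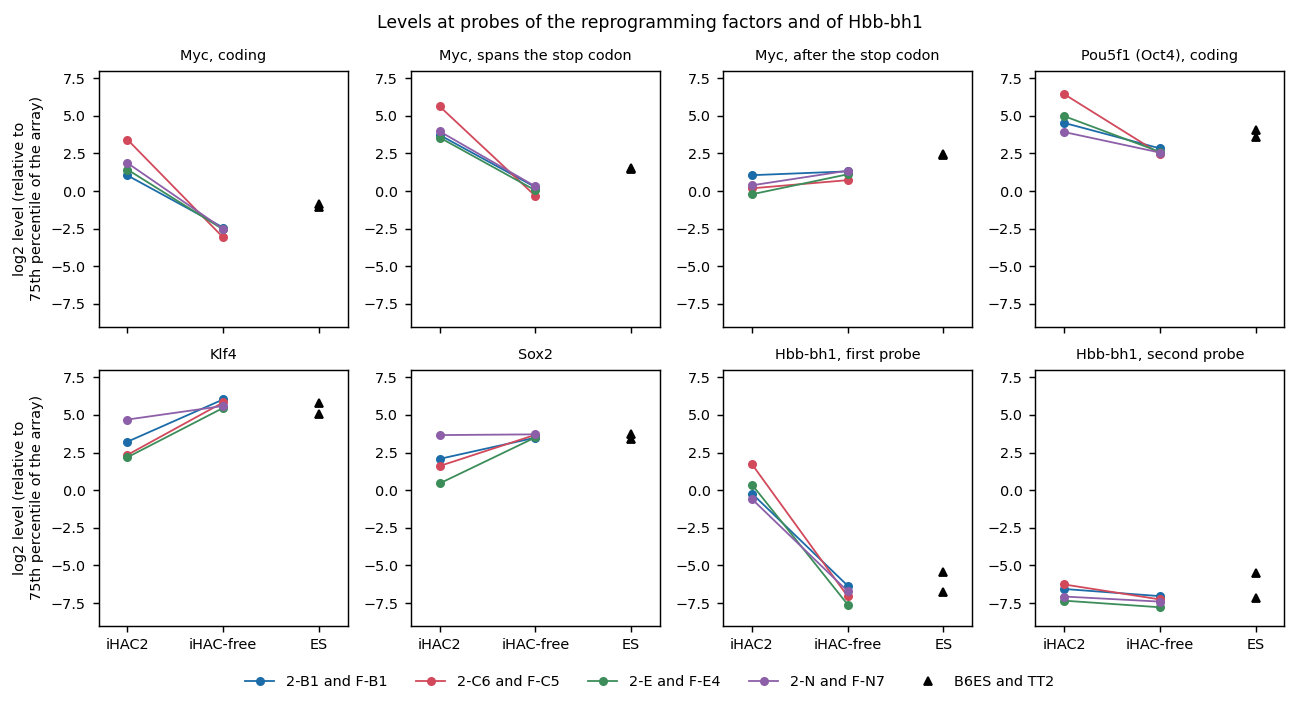
Log2 level (relative to the 75th percentile of the array) at 8 probes in the iHAC2-iPS clones, their iHAC-free lines and the ES lines. Lines join a clone and its own iHAC-free line, triangles are B6ES and TT2. The coding probes of Myc and the Pou5f1 probe fall in all 4 pairs while the Myc probe after the stop codon, Klf4 and Sox2 lie higher in each iHAC-free line than in its clone.

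The largest called decrease was at the first Hbb-bh1 probe, in a gene that belongs to embryonic red blood cells. It read -0.22 in 2-B1, 1.73 in 2-C6, 0.38 in 2-E and -0.59 in 2-N, well above background on all 4 arrays, and -6.34 in F-B1, -7.05 in F-C5, -7.60 in F-E4 and -6.71 in F-N7, well above background on none. The difference was -7.25 ± 0.47 (SE, adjusted p = 0.00229), and measured against the lowest detectable level of each iHAC-free array the clones were at least 48.1-fold higher. The second probe, shifted by 20 bases, read -7.34 to -6.26 in the clones and -7.78 to -7.04 in the iHAC-free lines and was well above background on 0 of 8 arrays. A signal was thus seen at 1 of 2 probes that share most of their letters. In the erythroid list, 1 of 9 genes tested was called lower, Hbb-bh1 itself, against 0.123% of all genes, and none was called higher. The other embryonic globins Hba-x and Hbb-y had mean differences of -0.55 and 0.38 and were not called. The letters of the first probe were also set against the reverse primer with which the study amplified transcripts from the vector, turned to the strand of the probe. Of 20 primer bases, 16 matched the end of the first probe and 9 at best matched the second, where 9 was the median over the 31415 probes tested. The aligned primer ran from position 42 to 61, past the end of the 60-base first probe. Only 1 other probe came as close, with 17 matches, at Fblim1, where the difference was 1.70 (adjusted p = 0.124). The part of this likeness in the Hbb-bh1 reading was not tested.

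Across the array, 139 of 31415 probes were called, 0.442% of those tested, with 101 higher (0.322%) and 38 lower (0.121%) after loss of iHAC2. They carry 125 names, and at 131 of the 139 probes the groups did not overlap, against 11.3% of all probes with a value. The call itself favours such probes, since the groups did not overlap at 58.1% of the probes with a 2-fold mean and 1 direction in the 4 pairs. The direction was the same in the 4 pairs for 8165 of 31399 probes with a value on the 8 arrays, 26% of them, with 9.55% higher and 16.4% lower. With a mean of at least 2-fold added, 790 probes were higher (2.52%) and 1130 lower (3.6%) in all 4 pairs, but among probes well above background on the 8 arrays this order turned, with 315 higher and 203 lower. The order also turned under quantile normalization and under normexp background correction. Of the called probes, 33 of the 101 that were higher were well above background on none of the clones, and 14 of the 38 that were lower on none of the iHAC-free lines. The count depends strongly on the fit: it was 256 without the pairing, 44 with slides as a block on the 8 paired arrays alone and 0 with clone terms on those 8 arrays, where 3972 probes had an unadjusted p under 0.05. Without the B pair 11 probes were called, without C 56, without E 8 and without N 373. The share of calls that were higher was 72.7%, and 59.0% under normexp background correction, which called 239. In these fits, except under normexp, each of the 139 kept its direction, and 135 did so under normexp.

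The pairs did not change by equal amounts. The median size of the difference at the called probes was 1.76 in B, 1.92 in C, 1.89 in E and 1.42 in N, and N was the smallest of the 4 at 74 of the 139. Over the probes tested, the root mean square difference between line and parental clone was 0.927 in B, 1.05 in C, 0.910 in E and 0.866 in N. F-B1 and F-N7 were nearer to their own clone than to any other clone, at 0.927 against 0.931 and at 0.866 against 0.878. F-C5 and F-E4 were nearer to another clone, at 0.868 and 0.891. The iHAC-free lines also differed less among themselves than the clones did. The median SD over 4 lines was 0.220 in the iHAC-free lines and 0.393 in the clones over 21184 genes, and for 80.6% of these genes the SD was lower in the iHAC-free lines. The same was true of all 10 pluripotency markers of the study, with median SDs of 0.189 and 1.35. Signal over background differs between the groups in the same direction, as given above, and its part in this spread was not tested.

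Of 10 pluripotency markers, 1 was called higher and none lower, where 0.33% of all genes were called higher. Each had a mean difference above 0, and the median was 1.74 against -0.06 for all genes. The markers are those that the study followed in these lines, so that their direction is not independent evidence. Khdc3, a KH domain protein of oocytes and ES cells, had the largest called increase of the genes with a symbol. It read -5.27 in 2-B1, -4.49 in 2-C6, -7.26 in 2-E and 0.28 in 2-N, and 1.48 in F-B1, 1.50 in F-C5, 0.52 in F-E4 and 2.18 in F-N7. Clone 2-N stood far above the other clones, and still below every iHAC-free line. The difference was 5.60 ± 0.85 (SE, adjusted p = 0.0397), and it was not called with slides as a block (0.154) or without the B, C or E pair (0.137, 0.0796 and 0.165). Nanog, at the core of the network, read 0.69, -0.82, -0.01 and 2.05 in the clones and 2.51, 2.58, 2.33 and 2.27 in the iHAC-free lines, in the order B, C, E and N. Dppa3, a maternal factor also known as Stella, read 1.43, -0.43, 1.49 and 2.66 against 3.38, 3.83, 4.03 and 3.82. Neither pair of groups overlapped, and the mean differences of 1.94 (adjusted p = 0.162) and 2.48 (adjusted p = 0.124) were not called, that of Dppa3 being called only under normexp (2.44, adjusted p = 0.0096).

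In the other 7 markers at least 1 pair had a difference below 0, and in all 7 that was the N pair. Tcl1, an activator of Akt signalling, differed by 2.75 in B, 2.40 in C and 3.11 in E and by -0.82 in N. The orphan receptor gene Esrrb differed by 1.83, 2.24, 2.57 and -0.20, and Zfp42, which encodes Rex1, by 2.15, 1.85, 2.72 and -0.55. Dnmt3l, a cofactor of DNA methylation, had levels of 2.81 to 4.27 in 3 clones and 6.55 in 2-N, where the iHAC-free lines read 5.23 to 5.56. Gbx2, a homeobox gene, was not well above background in 2-B1 and 2-E and differed by -0.26 in the C pair as well. Utf1 and Dppa5a had the smallest mean differences, 0.23 and 0.48. Without the N pair, Tcl1 was called (2.75, adjusted p = 0.00432).

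**Figure D2:**
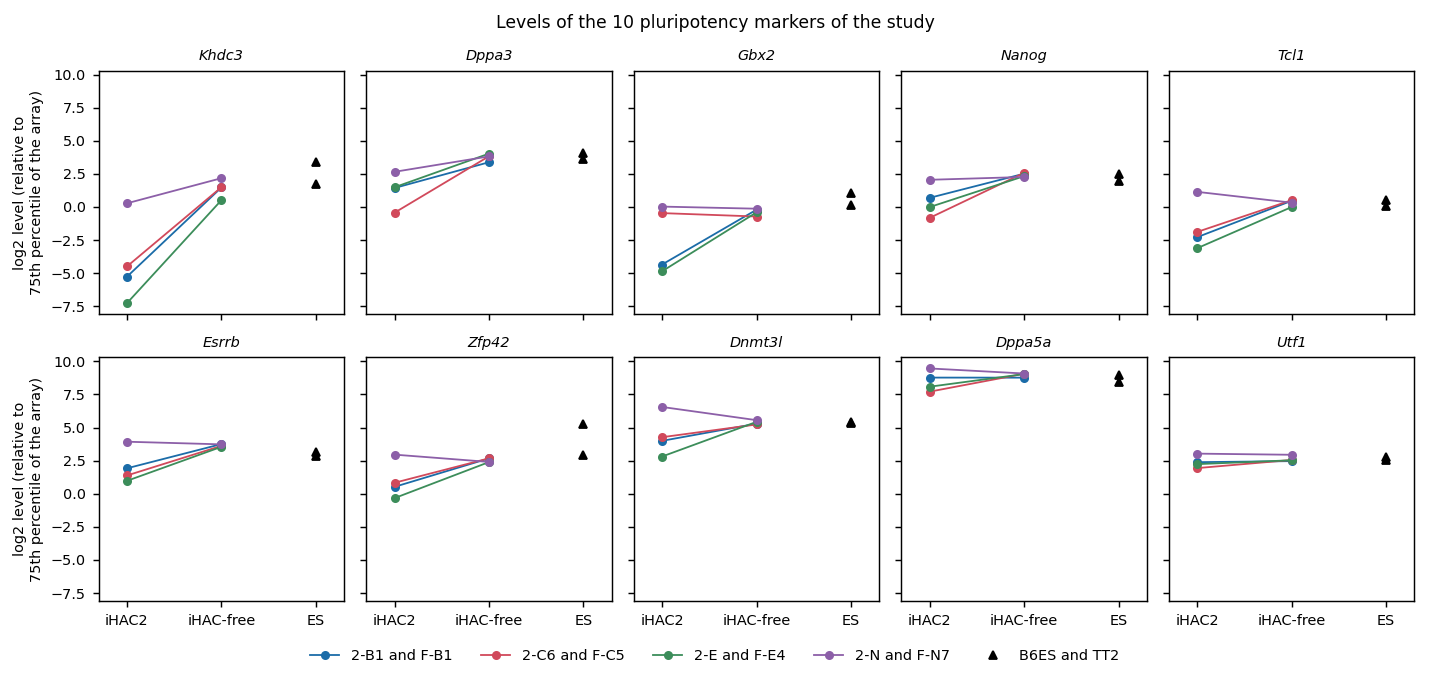
Log2 level (relative to the 75th percentile of the array) of the 10 pluripotency markers of the study, 1 probe a gene, ordered by mean difference. Lines join each clone with its iHAC-free line and triangles are the ES lines. The iHAC-free lines lie close together, and clone 2-N starts at or above their level for most markers but not for Khdc3, Dppa3 or Nanog.

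Among 22 other pluripotency genes none was called, and the median difference was 0.55. Klf2, a Krüppel-like factor of the naive network, gave different readings at its 2 probes. At base 1399 of the transcript it read 2.08, 1.96, 0.47 and 3.81 in the clones and 5.83, 5.33, 5.22 and 5.25 in the iHAC-free lines, a rise of 3.33 ± 0.45 (SE, adjusted p = 0.0264) that was not called with slides as a block (0.0844) or without the B, C or E pair (0.102, 0.0693 and 0.109). At base 524, the brighter probe, the clones read 6.89 to 7.28 and the iHAC-free lines 6.85 to 7.06, with a difference of -0.25 (adjusted p = 0.422). The gene as a whole therefore has no single direction here. Fbxo15, an Oct4 target, and Lin28a, which blocks maturation of let-7, were higher in all 4 pairs by 0.97 (adjusted p = 0.516) and 0.76 (adjusted p = 0.862) and were not called. For Lin28a the pair differences were 1.16, 0.65, 0.56 and 0.66, and the SE of the fit was 1.79. That SE also takes in the spread among lines outside the pairs, so it is not the scatter of the 4 pairs alone. Of 9 genes in the let-7 and Lin28 list, only Prtg was called, where 0.33% of all genes were called higher. Prtg was called at its 3 probes, by 2.98, 2.93 and 2.58. At the brightest of them this gene, which encodes the cell surface receptor protogenin, read 0.70, -0.05, -0.25 and -0.70 in the clones and 3.35, 2.33, 3.01 and 2.74 in the iHAC-free lines, in the order B, C, E and N. The groups did not overlap, and the N pair had the largest difference of the 4 at this probe, 3.44. The probe was not called without the B or E pair (adjusted p = 0.0749 and 0.100). Igf2bp2, of the same list, was lower in all 4 pairs and was not called (-0.96, adjusted p = 0.0534).

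Trophectoderm genes, which mark the lineage of the placenta, held the largest number of calls of any list, with 3 higher and 1 lower of 19, against 0.33% and 0.123% of all genes, and a median of 0.86. Rhox9, an X-linked homeobox gene, read -1.82, -1.73, -2.82 and -0.02 in the clones and 2.21, 2.72, 2.20 and 2.92 in the iHAC-free lines, a rise of 4.11 ± 0.49 (SE, adjusted p = 0.0149). Its neighbour Rhox6 rose by 3.41 ± 0.53 (SE, adjusted p = 0.0416), from -2.49 to 0.33 in the clones to 1.79 to 2.55 after loss. These genes belong to 1 family on the X chromosome, and the longest run of bases that their 60-base probes share is 7. Tfap2c, an AP-2 factor of trophoblast and germ cells, rose by 1.89 ± 0.30 (SE, adjusted p = 0.0416), from 1.45, 0.83, 1.19 and 2.47 to 3.37, 3.46, 3.11 and 3.56. B6ES and TT2 read 4.57 and 2.39 for Rhox9 and 3.20 and 2.61 for Tfap2c. Elf5, an Ets factor that maintains trophoblast stem cells, fell instead. It read -2.84, -2.69, -3.27 and -4.54 in the clones, with 3 of 4 well above background, and -4.80, -5.54, -5.50 and -6.93 in the iHAC-free lines, with 1 of 4. The difference was -2.35 ± 0.18 (SE, adjusted p = 0.00408), and the groups did not overlap. Under normexp it was -0.92, short of the minimum fold, and with slides as a block the adjusted p was 0.157. Rhox9 was not called without the B, C or E pair (0.0749, 0.0579 and 0.106), nor were Rhox6 (0.139, 0.0792 and 0.165) and Tfap2c (0.137, 0.0807 and 0.165), which also lost their call with slides as a block (0.0923 and 0.0767). Gata3, another trophoblast factor, was higher by 1.37 in all 4 pairs and was not called (adjusted p = 0.064).

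Germline genes had a median difference of 1.15, and 19 of 21 had a mean above 0. None passed the test in the main fit, while 11 had an unadjusted p under 0.05, against 18.2% of all genes. Higher in all 4 pairs were 6 of the 21, against 8.99% of all genes, among them Rhox5, the founding gene of the Rhox cluster, with 3.38 (adjusted p = 0.155), and Stk31, a testis kinase, with 2.54 (adjusted p = 0.0684). Rhox5 read 2.22, 3.69, 1.09 and 4.61 in the clones and 6.63, 6.67, 6.11 and 5.74 in the iHAC-free lines. Rhox5 was called under normexp (3.40, adjusted p = 0.0455). Stk31 was called without the N pair (3.35, adjusted p = 0.00193) and with a variance trend (adjusted p = 0.0483). In the N pair the median of the list was 0.04, against 1.09, 2.06 and 1.32 in B, C and E. Of 17 Wnt targets, 15 had a mean above 0, with a median of 0.89 and no call. Higher in all 4 pairs were 4 of the 17, against 8.99% of all genes. Dkk1 and Notum, secreted inhibitors of the pathway, were well above background on 0 of 4 clones and 4 of 4 iHAC-free lines, and differed by 3.04 (adjusted p = 0.193) and 2.21 (adjusted p = 0.101). Without the N pair Notum was called (2.78, adjusted p = 0.0435). Axin2, the usual reporter of the pathway, differed by 1.13 (adjusted p = 0.300).

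**Figure D3:**
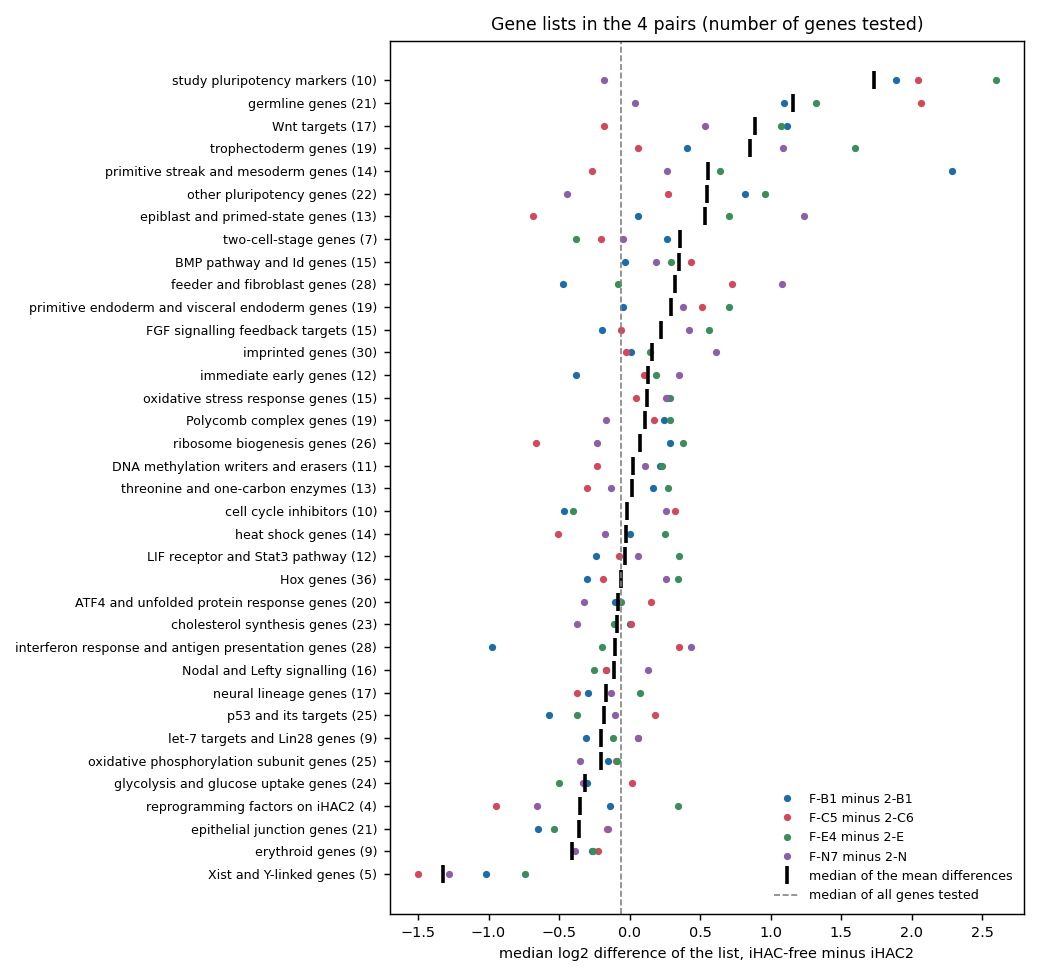
Median log2 difference (iHAC-free line minus its clone) of 36 gene lists with 4 to 36 genes tested. Points are the 4 pairs, black bars the median of the mean differences, and the dashed line the median of all genes. The study's pluripotency markers have the highest median of the mean differences (1.74) and lie below 0 in the N pair, and the list of Xist and Y-linked genes lies below 0 in all 4 pairs.

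The list of Trp53, which encodes p53, and its targets had a median of -0.18 and no call in 25 genes, with 2 higher and 5 lower in all 4 pairs, shares near the 8.99% and 18% of all genes. The vector carries a hairpin against p53, and neither Trp53 probe was called after its loss. The first, at base 989 of the transcript, read 0.61, 1.41, 0.70 and 1.07 in the clones and 1.92, 0.92, 1.92 and 1.21 in the iHAC-free lines, a difference of 0.54 ± 0.28 (SE, adjusted p = 0.339). The second, at base 98, differed by -0.20 ± 0.17 (SE, adjusted p = 0.563). The C pair went against the other pairs at both probes. Cdkn1a, the cell cycle inhibitor p21, differed by -0.44 (adjusted p = 0.315) and Perp, a junction protein, by -1.16 (adjusted p = 0.195), each lower in all 4 pairs. Gadd45a, a stress sensor, was higher in all 4 by 0.94 (adjusted p = 0.233).

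No gene of energy metabolism was called. Of 25 subunits of oxidative phosphorylation, 12 were lower in all 4 pairs and none higher, against 18% and 8.99% of all genes, and the median was -0.20. The largest mean differences among the 12 were those of Atp5d, of ATP synthase, with -0.45 (adjusted p = 0.149) and Ndufb3, of complex I, with -0.39 (adjusted p = 0.184). Of 24 genes of glycolysis and glucose uptake, 8 were lower in all 4 pairs and none higher, with a median of -0.32. Egln3, a prolyl hydroxylase of the hypoxia response, differed by -0.75 (adjusted p = 0.141) and Slc16a3, which exports lactate, by -0.69 (adjusted p = 0.326). Every difference named here is under 2-fold. The epithelial junction genes had a median of -0.36 with 6 of 21 lower in all 4 pairs, and 2 higher.

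The largest called decreases after Hbb-bh1 and Myc were found in genes of unlike function. Cd59a, which shields cells from complement, read 2.50 in 2-B1, 2.55 in 2-C6, 2.81 in 2-E and -1.50 in 2-N, against -1.82, -1.99, -2.23 and -2.33 in the iHAC-free lines. It fell by 3.68 ± 0.63 (SE, adjusted p = 0.0486) with only 0.83 of it in the N pair, and its second probe fell by 4.31 (adjusted p = 0.0416). Clone 2-N was already close to the iHAC-free lines. Alox12b, an epidermal lipoxygenase, fell by 3.59 (adjusted p = 0.0107) at 1 probe and differed by 0.45 (adjusted p = 0.265) at the other. The probe that fell was well above background on 4 of 4 clones and 1 of 4 iHAC-free lines. Sox21, a partner-type Sox factor, fell by 1.33 (adjusted p = 0.0416) at 1 of its 3 probes, and the others differed by 1.39 and -0.69. The zinc finger gene Zfp560 fell by 1.41 (adjusted p = 0.0103) with SDs of 0.22 and 0.12 in the groups, from -0.57, -0.63, -0.67 and -1.06 to -2.00, -2.23, -2.24 and -2.07. A second Zfp560 probe was called too (-1.72) but was not well above background on any of the 8 arrays. Mal, a proteolipid of membrane rafts, fell at least 2.36-fold (adjusted p = 0.0107) at 1 probe, and its other probe differed by 0.43 in the E pair and was not called. H2bc21, a histone H2B gene, fell by 1.66 (adjusted p = 0.0284), Sfi1, a centrosome protein, by 1.61 (adjusted p = 0.0347). Mfsd9, a putative transporter, fell by 1.35 (adjusted p = 0.0498) at 1 probe and differed by 0.44 at the other. With slides as a block the first Cd59a probe, Sox21, Sfi1 and Mfsd9 were not called (adjusted p = 0.162, 0.136, 0.105 and 0.117). These 4 and H2bc21 were not called without the B, C or E pair, Mal and the first Zfp560 probe without B or E, Alox12b without E, and Mfsd9 also without N (adjusted p = 0.0539 to 0.183 in these fits). With no filter on dim probes the adjusted p was 0.0532 for Cd59a and 0.0578 for Mfsd9. Under normexp Mal (-0.73) and Mfsd9 (-0.58) fell short of the minimum fold, and Mfsd9 also missed the threshold in the deposited value table (adjusted p = 0.0501).

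Among Xist and 4 Y-linked genes, 1 was called lower and none higher, against 0.123% and 0.33% of all genes. Kdm5d, a histone demethylase gene on the Y chromosome, read -1.97 in 2-B1, -2.45 in 2-C6, -1.84 in 2-E and -3.79 in 2-N, and -3.84 in F-B1, -5.62 in F-C5, -6.13 in F-E4 and -6.49 in F-N7, and was well above background on 4 of 4 clones and 1 of 4 iHAC-free lines. It fell by 3.01 ± 0.46 (SE, adjusted p = 0.0397). Ddx3y, an RNA helicase gene, read 1.59, 1.30, 1.34 and 0.43 in the clones and 0.17, -0.93, 0.18 and -0.85 in the iHAC-free lines and missed the threshold (-1.52, adjusted p = 0.0564). Eif2s3y, a translation factor gene, had pair differences from -0.21 in E to -3.07 in N, with overlapping groups, and was not called (-1.32, adjusted p = 0.193). Uty was not lower in the C pair, and its mean difference was -0.38 (adjusted p = 0.311). The median over the 11 probes placed on the Y chromosome was -0.52 in B, -1.50 in C, -0.60 in E and -0.98 in N, while no autosome or X chromosome had a median beyond -0.23 or 0.05 in any pair. Xist, which silences an X chromosome in female cells, showed no common direction (0.20, adjusted p = 0.885). ES lines read -2.56 and -2.40 for Ddx3y and the MEF array read 1.29 for Ddx3y and -2.54 for Kdm5d. The medians of the list of Xist and Y-linked genes were -1.02, -1.50, -0.74 and -1.28 in B, C, E and N, and the value in B is that of Xist. Fibroblast genes had list medians of -0.47 in B, 0.72 in C, -0.08 in E and 1.08 in N. The part of feeder RNA in the Y-linked values was not tested. Kdm5d was not called with slides as a block (adjusted p = 0.154) or without the B, C or E pair (0.0756, 0.0792 and 0.165).

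**Figure D4:**
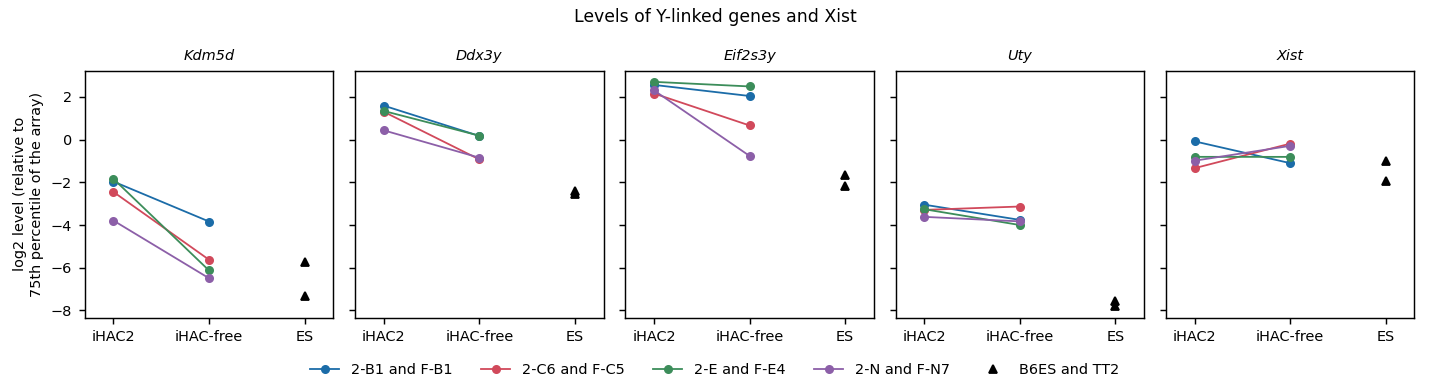
Log2 level (relative to the 75th percentile of the array) of 4 Y-linked genes and of Xist, 1 probe a gene. Lines join each clone with its iHAC-free line and triangles are the ES lines. Kdm5d, Ddx3y and Eif2s3y are lower in each iHAC-free line than in its own clone, Uty in 3 of 4 and Xist in no common direction.

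Of the 28 fibroblast genes that could mark feeder cells, all were well above background on at least 3 of 4 clones and on the 4 iHAC-free arrays. Their summed signal, relative to the 75th percentile, was 259 to 662 in the clones, 447 to 624 in the iHAC-free lines and 1161 on the MEF array. Mean differences were above 0 for 27 of 28 with a median of 0.32, and none was called or had an unadjusted p under 0.05. Of the 12 largest increases, 2 were muscle genes, a grouping made after their values were seen. Myom2, a protein of the muscle M-band, was well above background on no clone and on 4 of 4 iHAC-free lines, with -0.96 in F-B1, -2.17 in F-C5, -2.93 in F-E4 and -2.38 in F-N7. It was at least 6.11-fold higher after loss (adjusted p = 0.0107), and the MEF array read 2.40 and the ES lines 0.65 and -1.41. Myh7, the slow myosin heavy chain, rose by 2.96 (adjusted p = 0.0397), with -1.04 in the iHAC-free lines on average and 3.79 on the MEF array. Neither was called without the B pair (0.0700 for Myom2 and 0.137 for Myh7) or the E pair (0.0547 and 0.165), nor Myh7 without C (0.0693). The part of feeder RNA in these values was not tested.

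Of the other large increases, 3 were well above background on none of the clones. Slc16a9, a member of the monocarboxylate transporter family, read -4.87, -5.77, -4.76 and -6.75 in the clones, none well above background, and -2.11, -1.47, -1.92 and -1.40 in the iHAC-free lines, at least 7.61-fold higher (adjusted p = 0.0107). Pdcl2, a phosducin-like gene of germ cells, was at least 2.84-fold higher (adjusted p = 0.0119) and Msc, a basic helix-loop-helix repressor, at least 2.80-fold higher (adjusted p = 0.0416). Slc51a, a subunit of an organic solute transporter, rose by 3.46 (adjusted p = 0.038) at 1 probe, well above background on 1 of 4 clones and 4 of 4 iHAC-free lines. Its second probe was not well above background on any of the 8 arrays. Cpsf4l, which resembles an mRNA cleavage factor, was well above background on the 8 arrays and rose by 3.10 ± 0.34 (SE, adjusted p = 0.0119), from -0.16, -0.75, -1.74 and 0.16 to 2.46, 2.37, 2.41 and 2.68. Slc51a and Msc were not called with slides as a block (adjusted p = 0.0888 and 0.0994). Under normexp Slc51a (0.88), Msc (0.51) and Pdcl2 (0.72) fell short of the minimum fold. Without the B or the E pair Slc51a, Msc, Pdcl2 and Cpsf4l were not called, nor was Slc51a without C or Msc without N (adjusted p = 0.0562 to 0.166 in these fits), while Slc16a9 was called in each of them.

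**Figure D5:**
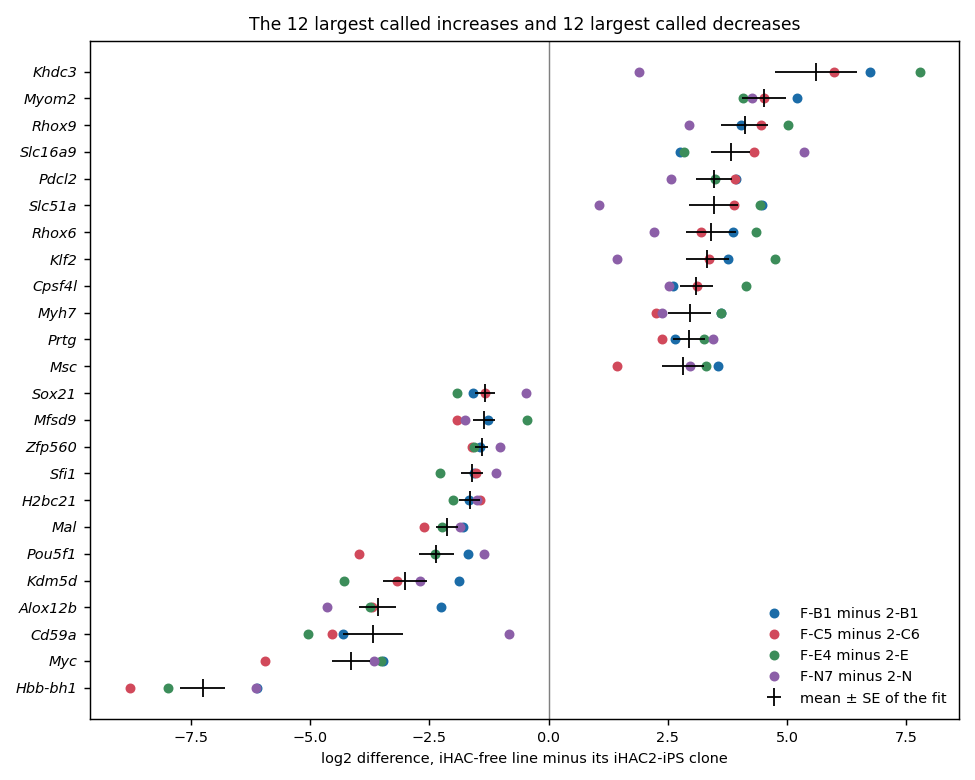
Log2 difference (iHAC-free line minus its iHAC2-iPS clone) in each pair for the 12 largest called increases and 12 largest called decreases. Coloured points are the 4 pairs and the black mark is the mean of the limma fit with its SE. All points of a gene lie on 1 side of 0, and the N pair is the smallest for Khdc3, Slc51a, Klf2 and Cd59a.

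Zinc finger genes of 2 clusters were also called, which was noticed after the values were seen. On chromosome 4, between 145886723 and 147129813 on mm9, Zfp984, Zfp985, Zfp987 and Rex2 rose by 1.24 to 2.39, and on chromosome 17, between 22129714 and 22592530, Zfp943, Zfp946, Zfp994 and Zfp758 rose by 1.00 to 1.17. The rise of 2.39 was at a Rex2 probe well above background on none of the clones, where it was at least 1.80-fold. The other called Rex2 probe rose by 1.76. Over the 309 genes named Zfp that were tested, 7 were called higher at the probe that stands for the gene and 1 lower. Of all genes 0.33% were called higher and 0.123% lower. The median difference of the Zfp genes was 0.02. Genes of these clusters are close copies of each other, so that a probe may read several of them. Of the 10 called probes of both clusters, 0 were called with slides as a block or without the B, C or E pair, and 10 without N.

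Promoters were read from RefSeq (GRCm38.p6, 250 bases before to 50 after the start) for 58 of the genes called higher and 20 called lower. The E-box CACGTG, the core site of Myc and related factors, was in 13 of the 58 (22.4%) and 1 of the 20, against 9.4% of 13314 tested genes with a promoter. Of the 13, 4 were the zinc finger genes of chromosome 17, and without that cluster the share was 9 of 54 (16.7%). Utrn and Fam178b were among the 13 through a probe that was called, while their brightest probes were not. The octamer ATGCAAAT of Oct4 was in 1 and 0, against 1.58%, the CACCC box CCACCC of Krüppel-like factors in 26 and 8, against 36.5%, and TATAAA in 4 and 2, against 9.91%. Both strands were searched, and the motifs were chosen with the values known. A promoter was found for 8 of the 12 largest increases, and an E-box in 1 of the 8. The promoters of Khdc3, the largest increase, and of Slc51a, the one that holds an E-box, are printed, at chr9:73102148-73102447 on the plus strand and chr16:32487830-32488129 on the minus strand. Capitals mark the CACCC box in both and, in Slc51a, 3 copies of the E-box.

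Khdc3: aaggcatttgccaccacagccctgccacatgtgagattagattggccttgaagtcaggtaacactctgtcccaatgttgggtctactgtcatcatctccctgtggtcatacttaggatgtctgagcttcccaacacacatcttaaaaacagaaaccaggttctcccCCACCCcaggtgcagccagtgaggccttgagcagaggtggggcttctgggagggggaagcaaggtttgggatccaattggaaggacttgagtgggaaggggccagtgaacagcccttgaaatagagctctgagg
Slc51a: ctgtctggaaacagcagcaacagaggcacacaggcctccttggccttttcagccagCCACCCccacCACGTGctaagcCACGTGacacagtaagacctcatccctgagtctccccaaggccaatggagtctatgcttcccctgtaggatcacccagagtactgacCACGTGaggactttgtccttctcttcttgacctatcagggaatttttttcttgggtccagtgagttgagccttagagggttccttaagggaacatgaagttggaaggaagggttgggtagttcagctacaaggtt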

How the data were processed

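Total RNA of 16 samples was labelled with Cy3 and hybridized to 1-colour Agilent whole mouse genome arrays. The authors extracted the spots with Feature Extraction, and each deposited scanner file gives intensity values that are background-subtracted but not scaled between arrays. A value table of log2 values, normalized by the authors in GeneSpring GX 11, was also deposited. Each of its probes was centred, its column medians ran from -0.33 to 0.28, and its pair differences had slopes of 1.00 against those used here. Scale and direction are thereby settled, and the centring used is not. It served as an alternative.

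Control and outlier spots were dropped, replicate spots averaged, and the log2 processed signal set relative to each array's 75th percentile. A probe was tested if at least 1 of the 16 arrays read it well above background, which 31415 of 41174 did. Of 28026 probes with a RefSeq accession, 26690 took their symbol from a RefSeq table, and the rest kept the name in the scanner file. Coordinates are those of the scanner files (mm9). No spot was saturated, and the number of arrays limits the precision.

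A limma model (3.58.1, R 4.3.3) over all 16 arrays held 6 groups and 3 clone terms, with 7 residual degrees of freedom and Benjamini-Hochberg adjustment over all probes. Its residual variance also draws on lines outside the pairs, so SEs and p-values do not measure the scatter of the 4 pairs alone. Pairs follow the line of origin. Deviations from the group mean correlated at -0.066, -0.219, 0.034 and 0.080 within pairs and at -0.105 to 0.216 across pairs. On simulated data with 200 of 31387 probes changed, 79% were recovered. This share holds for the changes planted there and does not measure the sensitivity in the 4 pairs.

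The pairs and the 36 gene lists were chosen with earlier results of these data known. The brightest probe over the 8 arrays stood for a gene in a list, and lists were not tested. The genes named were the 12 called probes with the highest and the 12 with the lowest difference (1 a gene, well above background on the 4 arrays of the brighter group), the reprogramming factors, the study's markers, Trp53, and from each other list up to 4 called members or, without a call, the 2 largest of 1 sign in all 4 pairs. The text gives a selection of these, and names any other gene as chosen for its probe, list or position. A fold given as "at least" replaces a dim value by the lowest signal well above background on that array. Alternatives covered the pairing, the arrays fitted, slides, background correction, quantile normalization, filters on dim probes (the one over the 8 paired arrays was added after seeing the data), the variance prior, 1 probe per gene, the minimum fold and leaving out each pair.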

Additional observations from a re-analysis of the deposited data

Results flagged for a closer look

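In 18 of 264 groups of 4 lines tested, 1 line stood apart from the other 3 by more than Dixon's 95% critical value, where chance flags about 1 in 20. Clone 2-N stood apart in 5 of them, with low levels of Cd59a (-1.50, others 2.50 to 2.81) and Sfi1 (-0.44, others 0.58 to 0.66) and high levels of Ttr, a transport protein of visceral endoderm (0.21, others -6.94 to -6.15), Shmt2 (4.30, others 3.94 to 4.00) and the median of the other pluripotency genes (3.10, others 1.58 to 1.76). F-B1 stood apart in 5, with high levels of Cer1 (0.18, others -4.33 to -3.64), Lhx1 (1.47, others -3.20 to -2.86), Sox7 (-2.90, others -3.68 to -3.56) and Hoxb8 (-4.21, others -4.95 to -4.84) and a low level of Dppa5a (8.77, others 9.04 to 9.08). Cer1 and Lhx1 are genes of the anterior endoderm and mesoderm. F-C5 stood apart in 4, with high Hoxd8 (-1.85, others -4.45 to -4.40), low Lin28a (1.97, others 2.42 to 2.47) and low medians of the trophectoderm list (-2.31, others -1.93 to -1.91) and of the let-7 and Lin28 list (1.97, others 2.34 to 2.42). The others were H2bc21 in 2-E (-1.22, others -1.73 to -1.71), Npm1 in 2-C6 (7.93, others 8.16 to 8.20), Ier3 in F-E4 (1.62, others 0.93 to 0.98) and the median of the cholesterol synthesis list in F-N7 (2.20, others 2.44 to 2.47).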

How the results depend on the processing

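Of the results, 139 probes were called, 101 higher and 38 lower. The counts moved by over 1.5 times without the replicate block for the pairing (256, of which 189 higher and 67 lower), on the 8 paired arrays alone (0, 0 and 0, with 3972 at an unadjusted p under 0.05), with slides as a block on them (44, 33 and 11), under normexp (239, of which 98 lower) and with a variance trend (232, 166 and 66). Without the B pair 11 were called (6 and 5), without C 56 (36 and 20), without E 8 (4 and 4) and without N 373 (247 and 126). In each of these 4 fits 6 probes were called, at Hbb-bh1, Myc (stop codon probe), Elf5, Slc16a9, Zscan5b and 1 unnamed probe, chosen after their values were seen. The Zscan5b probe was well above background on 0 of 4 clones and on 1 of 4 iHAC-free lines. Probes at least 2-fold higher or lower in all 4 pairs were 2.52% and 3.6%, against 0.640% and 0.611% under normexp, 1.52% and 0.980% among probes well above background on the 8 arrays, 1.97% lower under quantile normalization, and 2.86% to 3.90% higher with a pair left out. Under quantile normalization more of these probes were higher than lower, the reverse of the main order. Of 28 named probes called, 28 were called without the block and under quantile normalization, 22 under normexp, 14 with slides as a block, and 6, 14, 4 and 26 without the B, C, E and N pair. With clone terms on the 8 paired arrays alone, 0 of the 28 were called. Npm1, not called, turned to 0.0696 under quantile normalization. List medians changed sign in 21 of 288 comparisons. The median of all probes was -0.04, -0.15 under normexp and -0.16 with no filter. The causes were not tested. Signal over background limits the dim probes.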
